A study of Mus musculus with 12 samples.

Results

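Potassium channel genes were followed in the mouse hypothalamus, in RNA pulled down from the ventromedial nucleus (VMN) and in total RNA of the dissected tissue. The set holds the 92 protein-coding genes whose symbol starts with Kcn, without Kcnj8 and Kcnj11, out of 46517 gene identifiers in the files and 21547 protein-coding genes. By subfamily it holds 40 voltage-gated genes (10 of them silent subunits), 13 inward rectifiers, 14 two-pore channels, 8 calcium-activated channels and 17 auxiliary subunits. The sodium-activated channels Kcnt1 and Kcnt2 were counted with the calcium-activated ones.

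Translating ribosome affinity purification (TRAP) uses a GFP-tagged ribosomal protein to pull ribosomes, and the RNA on them, out of a tissue lysate, and per the labels the RNA obtained in this way came from SF1 cells. SF1, the product of Nr5a1, is a transcription factor that marks VMN neurons. The study asked which genes change in the VMN when AMPK, the kinase that reads the energy state of a cell, is inactive. The groups were DN outputs, CTRL outputs, DN inputs and CTRL inputs, each with 3 libraries, where an output is pulled-down RNA and an input is RNA of the dissected tissue. DN mice received an AAV for a dominant negative AMPK and an AAV for a GFP-L10 ribosomal fusion protein in the VMN. CTRL mice carry the GFP-L10 tag too, and their characteristics say that they lacked the AMPK mutant, although the treatment text of the same samples names it. Whether CTRL mice received another virus in its place is not stated, so effects of the construct and of an additional virus cannot be told apart. All mice were on regular chow and were fasted overnight, and 6 animals were pooled for each of the 6 pools, which gave 1 input and 1 output library each. Strain, sex, age, the promoter of each virus and what limits the tag to SF1 cells are not stated in the labels.

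Potassium channels let potassium leave or enter the cell along its gradient and so set the resting potential, the shape of the action potential and the firing rate of neurons. Voltage-gated members open on depolarization, inward rectifiers pass current best near rest and include the channels opened by G proteins, two-pore channels carry leak current, and calcium-activated channels follow calcium entry. Auxiliary subunits such as the Kcnip, Kcnab, Kcne and Kcnmb proteins change how pore subunits gate or reach the membrane. Astrocytes hold a potassium conductance of their own, for which the inward rectifiers Kcnj10 and Kcnj16 are known.

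The libraries held 34.6 to 55.5 M counts in genes. Genes of the mitochondrial chromosome took 17.9% to 26.1% of them in outputs and 74.9% to 79.7% in inputs, so the counts of nuclear genes ran from 26.2 to 32.1 M in outputs and from 8.54 to 11.3 M in inputs. The 92 genes held 192411 to 264103 counts in an output and 50081 to 68821 in an input, which was 0.735% to 0.831% of the nuclear counts in outputs and 0.556% to 0.611% in inputs. Nr5a1 had 10.9, 31.1 and 25.1 normalized CPM (counts relative to the library's total, after TMM scaling) in DN outputs, against 6.49, 6.88 and 4.72 in DN inputs. In CTRL it had 36.2, 19.2 and 12.5 in outputs, against 1.95, 2.97 and 1.29 in inputs. Of 10 VMN neuron markers, 8 were called higher in DN outputs than in DN inputs and 9 in CTRL outputs than in CTRL inputs. Nr5a1 itself was called in CTRL but not in DN. The others not called were Bdnf in DN and Sox14 in CTRL. The AMPK catalytic subunit gene Prkaa2 had 114, 82.6 and 77.8 CPM in DN outputs, against 90.2, 71.3 and 94.9 in CTRL outputs. Counts per gene cannot separate a virus-borne copy from the gene of the mouse and do not measure AMPK activity, so they do not check the labels DN and CTRL.

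Of the 92 genes, 59 had a count in every library and 8 had none in any (Kcna7, Kcne1, Kcnk7, Kcnk15, Kcnk16, Kcnk18, Kcnmb3 and Kcnq1). A filter on low counts let 74 genes into at least 1 of 5 tests and 60 into all 5. The 18 genes that entered no test averaged at most 0.296 CPM over the 12 libraries, and 7 of the 14 two-pore channels were among them.

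Promoter windows from RefSeq (GRCm38.p6, 250 bases before to 50 bases after a transcript start) were at hand for 68 of the 92 genes, in 93 windows. Those of Kcnj3 and Kcnh7, which were higher in pulled-down RNA, and of Kcnj10 and Kcnj16, which were lower, are shown so that their base composition can be compared. Capitals mark matches to the binding core of SF1 (AAGGTCA, or TGACCTT on the other strand) and to the GC box (GGGCGG, or CCGCCC on the other strand). For Kcnj16, which has 4 listed starts, the window with the SF1 core is given.

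Kcnj3 (chr2:55435720-55436019, + strand): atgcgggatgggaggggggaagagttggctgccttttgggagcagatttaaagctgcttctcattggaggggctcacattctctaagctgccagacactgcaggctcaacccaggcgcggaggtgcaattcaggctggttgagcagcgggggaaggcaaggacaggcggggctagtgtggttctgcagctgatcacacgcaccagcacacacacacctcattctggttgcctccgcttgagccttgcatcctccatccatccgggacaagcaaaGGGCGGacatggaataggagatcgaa

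Kcnh7 (chr2:63184238-63184537, - strand): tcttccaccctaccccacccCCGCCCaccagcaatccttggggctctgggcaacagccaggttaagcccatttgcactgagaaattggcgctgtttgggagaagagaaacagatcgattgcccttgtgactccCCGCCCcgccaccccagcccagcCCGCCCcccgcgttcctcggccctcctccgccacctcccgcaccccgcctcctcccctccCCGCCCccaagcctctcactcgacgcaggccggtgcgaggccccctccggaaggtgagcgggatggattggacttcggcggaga

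Kcnj10 (chr1:172340960-172341259, + strand): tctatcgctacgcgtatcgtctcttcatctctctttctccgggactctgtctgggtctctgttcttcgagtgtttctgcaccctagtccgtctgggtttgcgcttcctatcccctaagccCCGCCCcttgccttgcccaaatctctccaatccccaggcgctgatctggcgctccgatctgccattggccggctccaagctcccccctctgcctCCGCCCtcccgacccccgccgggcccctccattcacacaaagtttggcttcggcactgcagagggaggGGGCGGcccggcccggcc

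Kcnj16 (chr11:110967783-110968082, + strand): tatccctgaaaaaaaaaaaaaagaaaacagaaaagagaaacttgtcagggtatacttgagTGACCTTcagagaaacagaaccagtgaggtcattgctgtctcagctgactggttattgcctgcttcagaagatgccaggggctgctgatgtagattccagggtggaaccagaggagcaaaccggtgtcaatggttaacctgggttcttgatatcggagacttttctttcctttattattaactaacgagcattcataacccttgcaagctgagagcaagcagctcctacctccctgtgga

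The SF1 core was found in 3 of the 93 windows, those of Kcnf1, Kcnh1 and Kcnj16, which is 3.23%, while 4.72% of all 32851 promoter windows hold it. The GC box was found in 48.4% of the windows of potassium channel genes and in 35.7% of all windows. GC content was 57.7% in the Kcnj3 window, 67.7% in that of Kcnh7, 63.7% in that of Kcnj10 and 44.3% in the Kcnj16 window shown. These letter matches are a description of the windows and were not tested for binding.

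Levels were compared between genes per length, as normalized CPM per kb of exon. Kcnq3, which codes for a pore subunit of the M-channel that damps repetitive firing, had the highest level of the set in pulled-down RNA. It averaged 76.8 ± 8.81 CPM per kb in DN outputs, 69.3 ± 4.46 in CTRL outputs, 30.2 ± 4.27 in DN inputs and 23.9 ± 3.09 in CTRL inputs (SD, n = 3 each). In an output library Kcnq3 alone made up 16.4% to 20.9% of the summed level of the 92 genes in DN and 16.6% to 19.6% in CTRL. In inputs that share was 7.76% to 9.74% in DN and 6.72% to 8.30% in CTRL, below every output. Next in outputs came Kcnip4, a calcium-binding partner of the A-type channels, with 41.4 ± 2.92 CPM per kb in DN outputs and 45.0 ± 3.07 in CTRL outputs, so that its range lay below that of Kcnq3 in both groups.

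After these 2 genes the order in outputs was close. In DN outputs Kcna2, Kcnk1, Kcnip1 and Kcnj10 averaged 25.9, 23.7, 21.8 and 21.7 CPM per kb with SDs of 3.27, 3.81, 4.03 and 3.37, so neighbours in this order did not differ beyond their spread. In CTRL outputs the next ranks were held by Kcnj10, Kcna2 and Kcnip1 at 26.6, 23.0 and 17.9 with SDs of 8.26, 2.91 and 3.80. In inputs the astrocyte channel Kcnj10 came first, with 50.7 ± 4.76 CPM per kb in DN inputs and 42.3 ± 3.75 in CTRL inputs. Kcnj16 followed with 39.2 ± 6.98 in DN inputs, and in CTRL inputs Kcnip4 and Kcnj16 were level at 28.6 ± 2.50 and 28.6 ± 8.68.

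**Figure D1:**
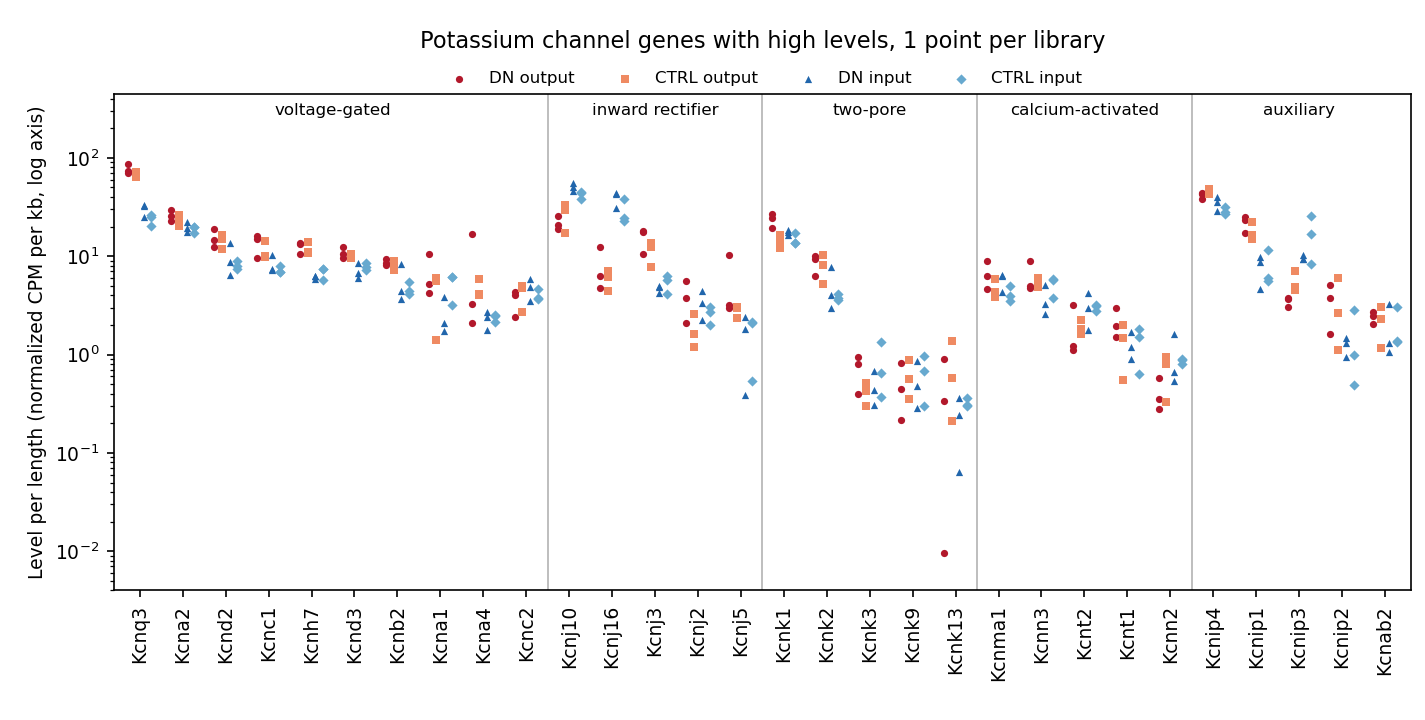
Level per length (normalized CPM per kb of exon, log axis) of genes with high mean levels in each subfamily, 10 voltage-gated and 5 of each other subfamily, with 1 point per library. Kcnq3 stands highest in DN and CTRL outputs, and the inputs of Kcnj10, Kcnj16 and Kcnip3 lie above their outputs.

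Among two-pore channels, Kcnk1 led with 23.7 ± 3.81 CPM per kb in DN outputs and 14.4 ± 2.15 in CTRL outputs, followed by the mechanically gated Kcnk2 with 8.63 ± 2.02 and 7.88 ± 2.55 in the same groups. Kcnk3, Kcnk9 and Kcnk13 averaged 0.595, 0.572 and 0.423 CPM per kb over the 12 libraries. Kcnma1, the large-conductance calcium-activated channel, had 6.65 ± 2.16 in DN outputs and 4.70 ± 1.10 in CTRL outputs. Kcnn3, a small-conductance one, had 6.25 ± 2.39 and 5.49 ± 0.551, so these genes did not differ from each other beyond their spread.

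Summed over a subfamily, voltage-gated genes had the highest level per length in every library. Their sum was 237 ± 2.97 CPM per kb in DN outputs and 217 ± 9.52 in CTRL outputs, against 132 ± 8.30 in DN inputs and 131 ± 6.67 in CTRL inputs (SD, n = 3 each). Inward rectifiers had the opposite order, with sums of 61.7 ± 9.06 in DN outputs and 54.8 ± 7.87 in CTRL outputs, against 105 ± 7.72 in DN inputs and 85.6 ± 6.31 in CTRL inputs. Voltage-gated genes thus made up 54.2% to 56.8% of the summed level in the 6 outputs and 36.1% to 43.2% in the 6 inputs. Inward rectifiers made up 12.3% to 15.5% in outputs and 25.6% to 32.8% in inputs. Kcnj10 and Kcnj16 held most of the inward rectifier sum in inputs, at 50.7 and 39.2 CPM per kb in DN and 42.3 and 28.6 in CTRL. The lower sums in outputs were not shared by most inward rectifiers. Output over input was above 0 on the log2 scale for 6 of 9 tested in DN (median 0.18). In CTRL it was above 0 for 6 of 11 (median 0.28).

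**Figure D2:**
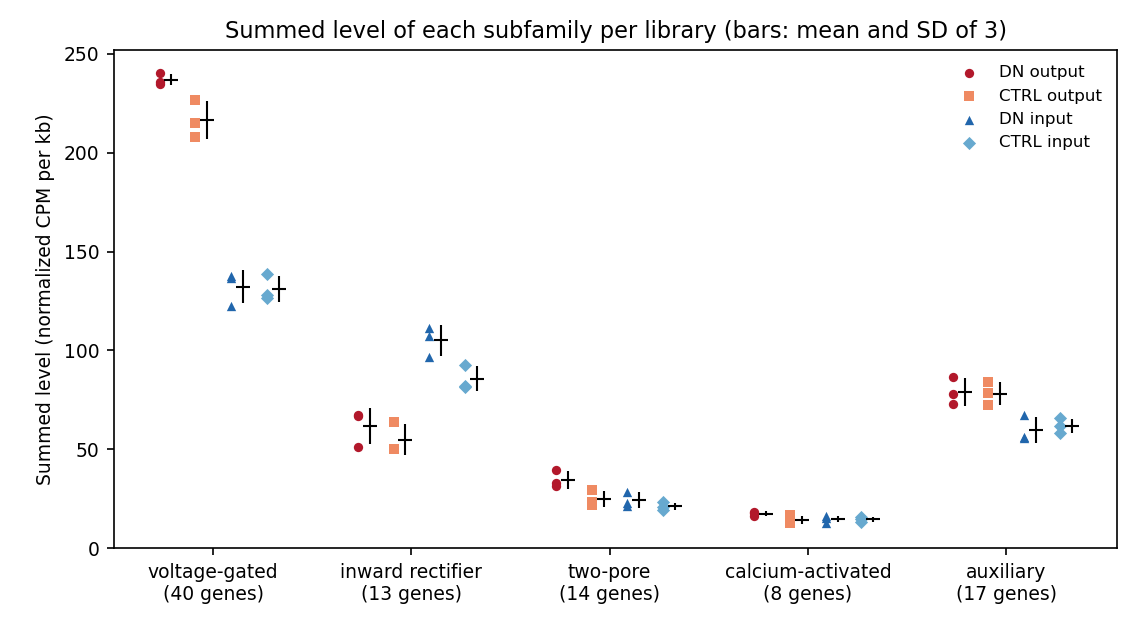
Summed level per length (normalized CPM per kb) of each subfamily, with 1 point per library and the mean and SD of 3 libraries beside it. Voltage-gated sums lie above 200 in all outputs and below 140 in all inputs. Inward rectifier sums, of which Kcnj10 and Kcnj16 hold most in inputs, are lower in all outputs than in all inputs.

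Pulled-down RNA was then compared with input RNA within DN and within CTRL. A gene was called at an adjusted p below 0.05 (edgeR's quasi-likelihood test, two-sided, with Benjamini-Hochberg adjustment over all genes tested), and fold changes are log2 with their standard error (SE). In DN, 5 of 65 tested potassium channel genes were called higher in outputs, among them Kcnq3, Kcnj3, Kcnh7 and Kcnip1, and 2 were called lower (Kcnj16 and Kcnj10). In CTRL, 6 of 67 were called higher, among them Kcnq3, Kcnb2, Kcnh7, Kcnip1 and Kcnip4, and 2 lower (Kcnj16 and Kcnip3). Among all genes tested, 1.84% were called higher and 1.54% lower in DN, and 1.78% higher and 1.42% lower in CTRL. The share of potassium channel genes called higher, 7.69% in DN and 8.96% in CTRL, stood above this background. So did the share called lower, 3.08% in DN and 2.99% in CTRL, which rests on 2 genes in each group. The median log2 fold change of the tested genes of the set was 0.39 in DN and 0.24 in CTRL, while that of all genes tested was 0.00 in DN and 0.02 in CTRL.

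Kcnq3 had 1074, 1038 and 1278 CPM in DN outputs, against 473, 487 and 372 in DN inputs. CTRL outputs had 943, 1058 and 1055 CPM, against 300, 366 and 387 in CTRL inputs. Every output lay above every input. In log2 terms output over input was 1.34 ± 0.14 (SE, adjusted p = 2.64e-04, edgeR) in DN and 1.53 ± 0.14 (adjusted p = 1.87e-04, edgeR) in CTRL, and the gene was called in all 10 alternative analyses of each. It is encoded at chr15:65986387-66286642 on the - strand (GRCm38).

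Kcnq5, a relative of Kcnq3, had 8.01, 27.6 and 28.4 CPM in DN outputs, against 30.9, 30.0 and 14.7 in DN inputs, which overlap.

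Kcnh7, which codes for a pore subunit of the Erg family, had 206, 161 and 204 CPM in DN outputs, against 88.4, 95.8 and 95.8 in DN inputs. In CTRL it had 214, 170 and 163 CPM in outputs, against 86.4, 112 and 112 in inputs. Outputs lay above inputs without overlap in both groups. The log2 fold change was 1.02 ± 0.19 (SE, adjusted p = 0.0116, edgeR) in DN and 0.81 ± 0.18 (adjusted p = 0.0363, edgeR) in CTRL. With pool 1, 2 or 3 left out, which leaves 2 libraries in each arm, the gene was not called, at an adjusted p of 0.0509 to 0.145 in DN and 0.0713 to 0.302 in CTRL (edgeR). Over all 10 alternatives the adjusted p was 7.49e-05 to 0.145 in DN and 1.67e-03 to 0.302 in CTRL, and the log2 fold change stayed above 0, at 0.89 to 1.15 in DN and 0.56 to 0.95 in CTRL.

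Kcnb2, a delayed rectifier gene, had 143, 131 and 123 CPM in DN outputs, against 66.8, 55.9 and 127 in DN inputs. CTRL outputs had 134, 110 and 132 CPM, against 63.1, 82.0 and 66.7 in CTRL inputs. The highest DN input lay within the range of the DN outputs, while CTRL outputs and inputs did not overlap. In log2 terms output over input was 0.65 ± 0.29 (SE, adjusted p = 0.290, edgeR) in DN and 0.82 ± 0.18 (adjusted p = 0.0353, edgeR) in CTRL. The difference between both effects was -0.16 with a 95% interval of -0.92 to 0.60 (adjusted p = 0.987, edgeR), so a difference was not shown. The CTRL call ended without any 1 pool, at an adjusted p of 0.134 to 0.284 (range over 10 alternatives 1.83e-03 to 0.284).

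Other voltage-gated genes with high levels did not pass in either group. Kcna2, which codes for a low-threshold channel of axons, had 348, 271 and 305 CPM in DN outputs, against 231, 207 and 263 in DN inputs, without overlap (log2 fold change 0.39 ± 0.16, SE, adjusted p = 0.271, edgeR). The A-type channel gene Kcnd2 had a log2 fold change of 0.67 ± 0.31 in DN (adjusted p = 0.320, edgeR) and 0.83 ± 0.21 in CTRL (adjusted p = 0.0621, edgeR). For Kcnd3, its close relative, the values were 0.60 ± 0.23 (adjusted p = 0.213, edgeR) and 0.34 ± 0.17 (adjusted p = 0.365, edgeR). Kcnh5, of the ether-a-go-go family, had 11.97, 17.3 and 22.6 CPM in DN outputs, against 0.963, 1.82 and 5.88 in DN inputs, with a log2 fold change of 2.57 ± 0.75 (adjusted p = 0.0930, edgeR).

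Over the voltage-gated subfamily, 3 of 32 tested genes were called higher in DN and 4 of 32 in CTRL, with none lower in either, and the median log2 fold change was 0.63 in DN and 0.33 in CTRL. No two-pore channel was called among 7 tested in each group, and no calcium-activated channel among 6. Among all genes tested, 1.84% were called higher and 1.54% lower in DN, and 1.78% higher and 1.42% lower in CTRL. At such shares, the absence of calls in a direction among so few genes says little about a subfamily. The median of the two-pore genes was 0.58 in DN and -0.05 in CTRL, and that of the calcium-activated genes 0.25 in DN and -0.17 in CTRL.

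Inward rectifiers split. Kcnj3, which codes for a subunit of the potassium channels opened by G proteins, had 91.8, 93.0 and 55.2 CPM in DN outputs, against 25.2, 22.3 and 26.2 in DN inputs. Its levels in CTRL were 71.3, 64.7 and 40.3 CPM in outputs, against 21.6, 33.1 and 30.2 in inputs. Outputs were above inputs in both groups without overlap, and pool 3 gave the lowest output in each. On the log2 scale output over input was 1.69 ± 0.29 (SE, adjusted p = 8.11e-03, edgeR) in DN and 1.05 ± 0.28 (adjusted p = 0.0769, edgeR) in CTRL. Their difference was 0.65 with a 95% interval of -0.20 to 1.497 (adjusted p = 0.858, edgeR). Without pool 1 or pool 2 the DN call ended, with a highest adjusted p of 0.108 (range over 10 alternatives 2.52e-06 to 0.108). An antisense gene, Gm26794, covers 31.1% of the exon length of Kcnj3, and since the strand setting of the counting is not stated, reads of both genes cannot be told apart there.

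The genes that can join Kcnj3 in one channel were lower in level. Per length, Kcnj6 stood at 0.194 ± 0.0641 times the level of Kcnj3 in DN outputs and 0.182 ± 0.0397 times in CTRL outputs, and Kcnj9 at 0.208 ± 0.126 times and 0.255 ± 0.0891 times. Kcnj5, best known from the heart, had 14.9, 48.7 and 13.9 CPM in DN outputs, against 8.46, 1.82 and 11.4 in DN inputs, so that the second DN output stood far above the others. None of Kcnj5, Kcnj6 and Kcnj9 was called in DN or CTRL (adjusted p of 0.225 to 0.943 in DN and 0.502 to 0.869 in CTRL, edgeR).

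Kcnj16, an inward rectifier subunit that joins Kcnj10, had 49.1, 24.7 and 18.8 CPM in DN outputs, against 168, 172 and 123 in DN inputs. In CTRL it had 24.5, 27.5 and 17.3 CPM in outputs, against 96.4, 89.3 and 152 in inputs. Every output lay below every input. The log2 fold change was -2.33 ± 0.34 (SE, adjusted p = 2.34e-03, edgeR) in DN and -2.30 ± 0.28 (adjusted p = 1.34e-03, edgeR) in CTRL. The CTRL call held in all 10 alternatives, and the DN call ended without pool 2, at an adjusted p of 0.0582 (range over 10 alternatives 8.24e-12 to 0.0582).

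Kcnj10, the main potassium channel gene of astrocytes, had 138, 102 and 112 CPM in DN outputs, against 271, 301 and 250 in DN inputs. CTRL outputs had 93.2, 178 and 160 CPM, against 245, 236 and 206 in CTRL inputs. Outputs lay below inputs without overlap in both groups, with the first CTRL output lowest. In log2 terms output over input was -1.23 ± 0.18 (SE, adjusted p = 2.44e-03, edgeR) in DN and -0.68 ± 0.22 (adjusted p = 0.137, edgeR) in CTRL. Without pool 2 or pool 3 the DN call ended, with a highest adjusted p of 0.0593 (range over 10 alternatives 2.03e-08 to 0.0593). The difference between both effects was -0.55 with a 95% interval of -1.18 to 0.07 (adjusted p = 0.836, edgeR). Per length, Kcnj16 stood at 0.351 ± 0.131 times the level of Kcnj10 in DN outputs and 0.241 ± 0.108 times in CTRL outputs, against 0.771 ± 0.0892 times in DN inputs and 0.691 ± 0.278 times in CTRL inputs.

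Markers of astrocytes moved with these genes. Of 10 astrocyte markers, 7 were called lower in outputs in DN and 8 in CTRL, with none higher and medians of -2.16 and -1.88. Their summed level was 1341 to 1431 CPM in DN outputs, against 3591 to 4023 in DN inputs, and 1792 to 2042 in CTRL outputs, against 3402 to 4031 in CTRL inputs. The defining marker Aqp4 had 71.8 to 91.3 CPM in DN outputs and 69.6 to 105 in CTRL outputs, so it was not at 0 in pulled-down RNA. Oligodendrocyte markers were lower as well, with 7 of 10 called in DN and 8 of 10 in CTRL. The part of these cell types in the values of Kcnj10 and Kcnj16 was not tested. Input and output came from the same pool, so these values compare pulled-down with total RNA and not numbers of cells. Carryover into the outputs of RNA from cells without the tag was not tested. Between DN and CTRL, fewer cells of a type and less RNA per cell cannot be told apart in such bulk samples.

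Auxiliary subunits held calls in both directions. Kcnip1, a calcium-binding partner of the A-type channels, had 154, 145 and 107 CPM in DN outputs, against 28.6, 54.6 and 61.0 in DN inputs. Its levels in CTRL were 138, 102 and 93.4 CPM in outputs, against 71.3, 34.9 and 36.8 in inputs. Outputs lay above inputs in both groups without overlap. On the log2 scale output over input was 1.48 ± 0.29 (SE, adjusted p = 0.0166, edgeR) in DN and 1.21 ± 0.29 (adjusted p = 0.0467, edgeR) in CTRL. Without any 1 pool both calls ended, at an adjusted p of 0.0534 to 0.118 in DN and 0.0797 to 0.284 in CTRL (range over 10 alternatives 8.09e-06 to 0.118 in DN and 3.03e-04 to 0.284 in CTRL).

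Kcnip3, of the same family and also known as a calcium-dependent transcriptional repressor, had 12.9, 13.2 and 10.9 CPM in DN outputs, against 33.2, 33.1 and 36.5 in DN inputs. In CTRL it had 17.1, 24.9 and 15.9 CPM in outputs, against 29.6, 59.5 and 91.9 in inputs. Outputs lay below inputs in both groups, and the CTRL inputs were widely spread, with pool 3 highest. The log2 fold change was -1.49 ± 0.38 (SE, adjusted p = 0.0531, edgeR) in DN and -1.66 ± 0.39 (adjusted p = 0.0443, edgeR) in CTRL. The CTRL call ended without any 1 pool, at an adjusted p of 0.105 to 0.234 (range over 10 alternatives 1.95e-04 to 0.234). The interaction was 0.17 with a 95% interval of -0.89 to 1.23 (adjusted p = 0.9902, edgeR).

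Kcnip4 had 158, 138 and 154 CPM in DN outputs, against 129, 145 and 106 in DN inputs. CTRL outputs had 156, 176 and 158 CPM, against 101, 114 and 96.4 in CTRL inputs. DN outputs and inputs overlapped, and CTRL ones did not. In log2 terms output over input was 0.23 ± 0.19 (SE, adjusted p = 0.628, edgeR) in DN and 0.65 ± 0.15 (adjusted p = 0.0484, edgeR) in CTRL, with a difference of -0.41 and a 95% interval of -0.92 to 0.10 (adjusted p = 0.851, edgeR). With the pool as a block the CTRL call ended, at an adjusted p of 0.0509, as it did without any 1 pool at 0.155 to 0.257 (range over 10 alternatives 5.51e-03 to 0.257). Per length, Kcnip1 stood at 0.530 ± 0.109 times Kcnip4 in DN outputs and 0.401 ± 0.10 times in CTRL outputs, against 0.229 ± 0.105 times in DN inputs and 0.272 ± 0.124 times in CTRL inputs. The subunits Kcnab1 and Kcnab2 of Kv1 channels had 11.4 to 41.2 and 11.4 to 15.2 CPM in DN outputs, and the Kcnmb genes, partners of Kcnma1, had at most 6.82 CPM in any output.

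**Figure D3:**
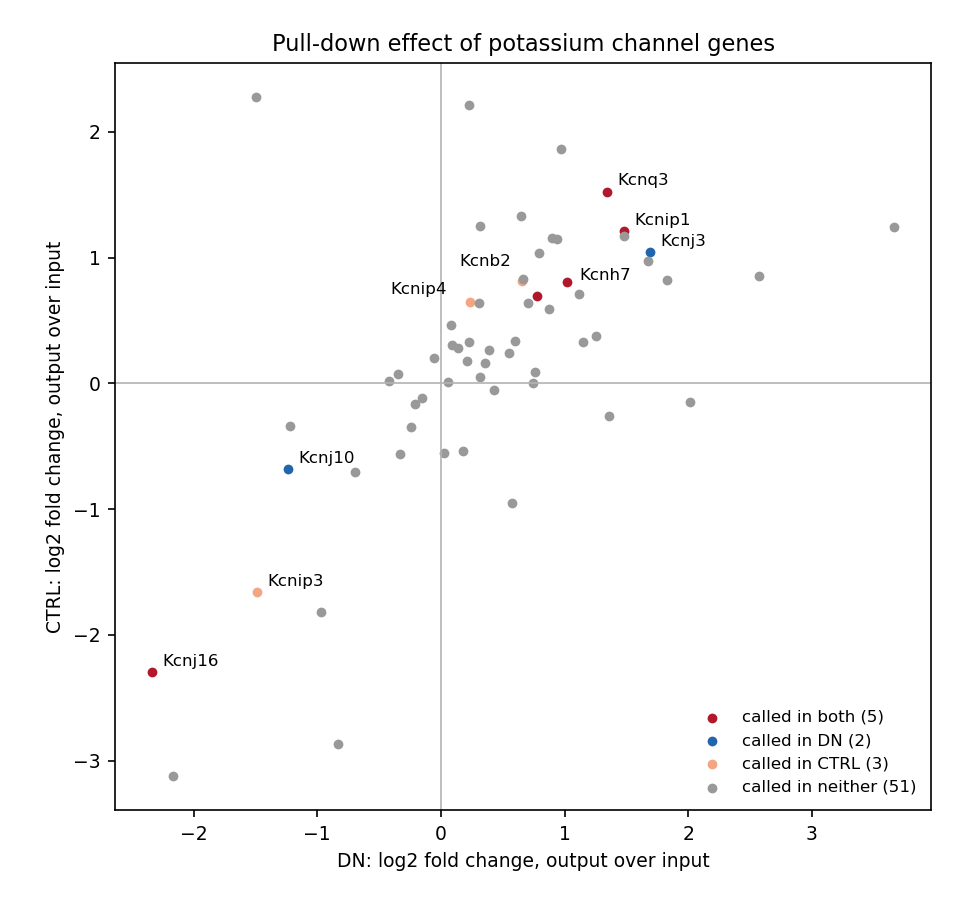
Fitted log2 fold change of output over input in DN (x axis) and in CTRL (y axis) for the 61 potassium channel genes tested in both, coloured by where they were called. 5 genes were called in both groups, 2 in DN alone and 3 in CTRL alone, and all 10 of these have the same sign in both.

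The DN and CTRL comparisons shared no library. Of the 61 genes tested in both, 39 had fold changes above 0 in both, 12 below 0 in both and 10 of opposite sign. Across these genes Pearson's r was 0.611 and Spearman's rho 0.626, given as a description, since genes of one library share its depth and are no replicates.

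Within each pool, the log2 ratio of output to input, with 1 CPM added to both, was taken gene by gene. Of the 36 genes shown, which averaged at least 10 CPM, 12 had a ratio above 0 in all 6 pools, 4 below 0 in all 6 and 20 on both sides. The same shares were not counted over all genes at this level, so these numbers are not shown to be particular to potassium channels. The 12 were Kcnh5, Kcnq3, Kcnip1, Kcnj3, Kcnj5, Kcnh7, Kcnk2, Kcnd2, Kcnh1, Kcnc1, Kcnd3 and Kcna2. The 4 were Kcnt2, Kcnj10, Kcnip3 and Kcnj16. Kcnq3 had ratios of 1.18, 1.09 and 1.78 in the DN pools, against 1.65, 1.53 and 1.44 in the CTRL pools. For Kcnd3, a gene that passed no test, the ratios were 0.52, 0.79 and 0.52 in the DN pools, against 0.30, 0.32 and 0.41 in the CTRL pools. Kcna4 spread from -0.35 to 3.10 in the DN pools, where 1 output library had 81.6 CPM and the other two 10.1 and 15.7.

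**Figure D4:**
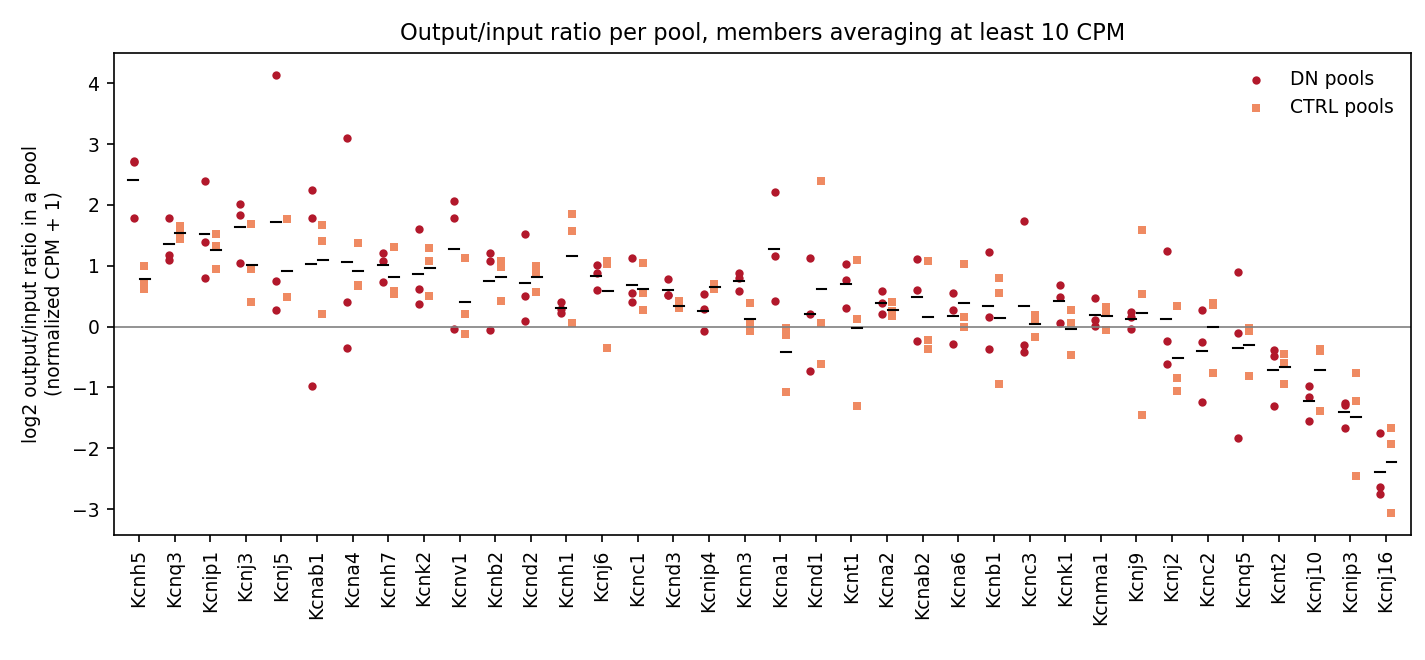
Log2 ratio of output to input within a pool (normalized CPM + 1) for 36 potassium channel genes that averaged at least 10 CPM, sorted by mean, with DN pools left of CTRL pools and a bar at each mean of 3. Kcnq3 has all 6 pools above 1, and Kcnj16 has all 6 below -1.5.

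Of 20 genes for channel partners and related channels, 2 of 17 tested were called higher in DN outputs than in DN inputs. In CTRL 3 of 18 were called higher, with none lower in either group. Among all genes tested, 1.84% were called higher and 1.54% lower in DN, and 1.78% higher and 1.42% lower in CTRL. Dpp10, a transmembrane partner of A-type channels, had 372, 365 and 322 CPM in DN outputs, against 175, 110 and 175 in DN inputs (log2 fold change 1.19 ± 0.20, SE, adjusted p = 5.87e-03, edgeR). In CTRL it had 297, 291 and 301 CPM in outputs, against 118, 203 and 166 in inputs (0.86 ± 0.19, adjusted p = 0.0351, edgeR). Cntnap2, which anchors Kv1 channels along axons, was called in CTRL at 0.73 ± 0.14 (adjusted p = 0.0174, edgeR) and had 0.41 in DN (adjusted p = 0.265, edgeR). Genes of GABA neurons went the other way, with 3 of 8 called lower in DN and 2 of 8 in CTRL, and 2 of 10 pan-neuronal markers were called higher in DN and 3 of 10 in CTRL. The part of these neuron types in the channel values was not tested.

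DN was compared with CTRL to ask whether the dominant negative construct moved potassium channel genes in pulled-down RNA. No gene of the set was called among 67 tested in outputs, where 0.0% of all 13333 genes were called by edgeR, and no gene of the set was called by DESeq2 either. At an unadjusted p below 0.05 stood 2 of the 67 genes (2.99%), against a background of 5.41%. For 4 of the 67 (5.97%), Kcnh2, Kcnh4, Kcnip3 and Kcnk1, the DN and CTRL outputs did not overlap, against 11.0% of all genes tested. Both shares lay below the background. The median log2 fold change of the set was 0.12, and that of all genes tested 0.01.

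The 5 genes with the smallest p in outputs were Kcnh4, Kcnk1, Kcnj2, Kcnj5 and Kcnma1, at adjusted p of 0.880 to 0.948 (edgeR). Kcnk1, a two-pore channel gene, had 43.5, 55.3 and 60.0 CPM in DN outputs, against 36.9, 27.3 and 32.1 in CTRL outputs. All DN outputs were above all CTRL outputs, with a log2 fold change of 0.72 and a 95% interval of 0.13 to 1.31 (unadjusted p = 0.0215, adjusted p = 0.911, edgeR). In inputs it had 41.5, 39.0 and 36.9 CPM in DN, against 30.3, 38.2 and 30.8 in CTRL.

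Kcnh4, an Elk-family gene, had 21, 160 and 205 counts in DN outputs, against 3, 0 and 3 counts in CTRL outputs, 1, 0 and 0 in DN inputs and 2, 1 and 1 in CTRL inputs. The counts outside the DN outputs are at or below the 3 counts that a count of 0 allows, and the first DN output stood well below the others. Kcnh4 thus passed the filter on low counts through the DN outputs alone, in the test of outputs and in that of the interaction. Its small p and its lack of overlap rest on the same group that let it in. Its adjusted p was 0.880 in outputs (unadjusted p = 6.80e-03, edgeR) and 0.0945 to 1 over 12 alternatives, and no fold is given against so few counts. Kcnma1 had 152, 79.4 and 107 CPM in DN outputs, against 64.6, 101 and 74.1 in CTRL outputs, which overlap (log2 fold change 0.50, 95% interval -0.08 to 1.08). Kcnj5 and Kcnj2 had intervals of -0.15 to 2.10 and -0.01 to 2.20.

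For the genes with the highest levels the intervals set an approximate bound on what a change between DN and CTRL outputs could be. Kcnq3 differed by 0.15 on the log2 scale, with a 95% interval of -0.12 to 0.41. For Kcnh7 the interval was -0.33 to 0.45, for Kcna2 -0.18 to 0.52 and for Kcnip4 -0.48 to 0.23. For Kcnj3 (-0.18 to 1.06), Kcnj16 (-0.48 to 1.31) and Kcnip3 (-1.56 to 0.26) it was wider and held log2 changes beyond 1 in size.

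In inputs, no gene of the set was called among 64 tested, where 0.00756% of all 13221 genes were called by edgeR, and DESeq2 called none of the set. At an unadjusted p below 0.05 stood 4 genes (6.25%: Kcnh5, Kcna1, Kcnip3 and Kcnq3), against a background of 4.46%. For 5 genes (7.81%: Kcnh5, Kcnj10, Kcnmb4, Kcns2 and Kcns3) the groups did not overlap, against 10.5% of all genes tested. The median log2 fold change was -0.04 in the set and 0.03 over all genes tested. Kcna1, a low-threshold channel gene, had 18.4, 10.1 and 8.35 CPM in DN inputs, against 29.6, 29.3 and 15.2 in CTRL inputs (log2 fold change -1.01, 95% interval -1.97 to -0.06, adjusted p = 0.997, edgeR). Kcnip3 had -0.81, with an interval of -1.58 to -0.04, and its CTRL input of pool 3 was the highest. Kcnq3 had 473, 487 and 372 CPM in DN inputs, against 300, 366 and 387 in CTRL inputs, which overlap.

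**Figure D5:**
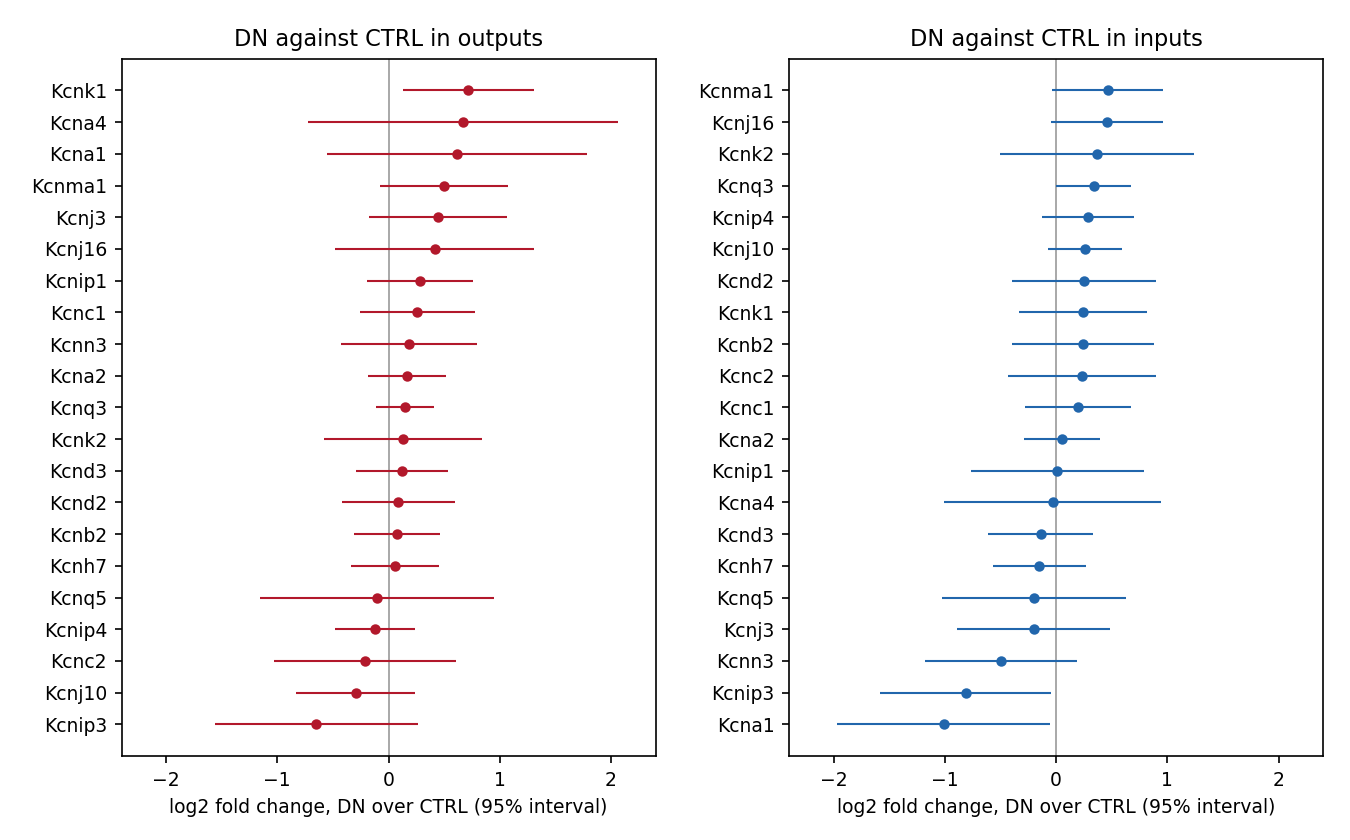
Log2 fold change of DN over CTRL with its 95% interval in outputs (left) and inputs (right) for 21 potassium channel genes that averaged at least 20 CPM, sorted within each panel. The interval leaves out 0 for 1 gene in outputs (Kcnk1) and for 3 in inputs (Kcna1, Kcnip3 and Kcnq3), and none was called after adjustment.

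The interaction, which asks whether the output over input fold change differed between DN and CTRL, was tested for 74 genes of the set and called none, with 0.0% called among all 15011 genes by edgeR and no gene of the set by DESeq2. At an unadjusted p below 0.05 stood 3 genes (4.05%: Kcnh4, Kcna1 and Kcnh2), against a background of 6.22%. The median was 0.18 in the set and -0.02 over all genes. Kcna1 had 25.1, 50.4 and 19.98 CPM in DN outputs, against 18.4, 10.1 and 8.35 in DN inputs, and 26.7, 28.8 and 6.74 CPM in CTRL outputs, against 29.6, 29.3 and 15.2 in CTRL inputs. Its interaction was 1.63 with a 95% interval of 0.06 to 3.19 (adjusted p = 0.779, edgeR). Kcnh2, an Erg-family gene, had an interaction of 2.15 with an interval of 0.05 to 4.26 (adjusted p = 0.785, edgeR), at 0.351 ± 0.207 CPM per kb in DN inputs. For Kcnq3 the interaction was -0.19 with an interval of -0.61 to 0.23, and for Kcnj16 it was -0.04 with an interval of -0.99 to 0.91.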

How the data were processed

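The authors deposited 1 table of raw read counts per Ensembl gene for each of the 12 libraries. Reads were handled with HTSeq 0.6.1, STAR 2.4.2a and cutadapt 1.3 on the build GRCm38, per the submitters' processing notes, and a NuGEN Ovation V2 kit amplified the RNA of every library, per the labels' protocols. Neither the annotation release nor the strand setting is given in the sources used here. Reads without a gene were left out of library sizes; of all listed reads, those with no feature made up 3.73% to 10.3%, ambiguous ones 1.04% to 2.56% and those aligned more than once 10.8% to 13.5%.

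Symbols, biotypes, strands and exon lengths came from GENCODE for GRCm38, which held 46005 of the 46517 identifiers (98.9%). Tests used edgeR 4.0.16 in R 4.3.3 (quasi-likelihood, TMM, filterByExpr with a minimum count of 10 and a minimum total of 15) on the 6 libraries of each comparison, and on all 12 for the interaction, with p-values adjusted over all genes tested. Levels are CPM with TMM factors over the 12 libraries. Alternatives were DESeq2 1.42.0, its size factors, no filter, a mean of at least 5 CPM, no mitochondrial chromosome genes, leaving out each replicate in turn, 1 fit over the 12 libraries together and a replicate block. The tests were tried on simulated counts. Floors from counts cover counting error only, as no molecular identifiers are named.

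Named genes are those called in a test, the 3 with the highest level per length in each subfamily, the 5 with the smallest p in each comparison of DN with CTRL and in the interaction, and the partner sets of the main channels. Further genes were named for ratios above or below 0 in all 6 pools, for groups that do not overlap, or for a single high library, after their values were seen. Single genes that belong to the counts but are neither named nor plotted on their own are not reported here. The gene set and all lists were chosen with earlier results of these data known.

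Input and output of one number come from the same pool per the series' design text, which pairs them. Deviations from group means correlated within a pool at r = 0.004, -0.002 and 0.015 in DN and 0.096, 0.035 and 0.156 in CTRL. DN and CTRL pools share only a number. Without the block, the main fits treat input and output of a pool as independent libraries. Their p-values rest on the spread between libraries of a group, each from another pool. This spread includes variation from pull-down and amplification, and it is not that of the output over input ratio between pools.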

Additional observations from a re-analysis of the deposited data

How the results depend on the processing

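With the pool as a replicate block, which pairs input and output, 396 of 13041 genes were called in DN (441 without it). In CTRL 527 of 13456 were called (431 without it). Calls among all genes by direction are not given here for the block. Of the potassium channel genes, 5 of 65 were then higher and 2 lower in DN, and 5 of 67 higher and 2 lower in CTRL. There Kcnip4 lost its call and the median log2 fold change was 0.15 in place of 0.24. In DN against CTRL the block joins unrelated pools that share only a number; it called 0 genes in inputs and 0 in outputs.

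With 1 pool left out, the number of all genes called in output against input was 115 to 148 in DN, of 13270 to 13457 tested. In CTRL it was 45 to 214, of 13786 to 13859 tested. Of the 66 to 70 potassium channel genes tested in DN, 1 to 2 were then higher and 0 to 2 lower. Of the 65 to 69 tested in CTRL, 1 was higher and 1 lower. Calls among all genes by direction are not given here for these fits. Their median was 0.40 to 0.56 in DN and 0.17 to 0.36 in CTRL. For DN against CTRL, leaving out 1 library gave medians of 0.053 to 0.19 in outputs, and 0 to 8 genes called in inputs in place of 1. These fits hold fewer libraries, and the effect of any single pool was not tested.

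DESeq2 called 1124 of 13041 genes in DN and 1172 of 13456 in CTRL. Of the potassium channel genes, 8 of 65 were higher in DN, and 10 of 67 were higher and 4 lower in CTRL. For DN against CTRL it called 58 genes in outputs, 2 in inputs and 99 in the interaction, none of the set. With no filter on low counts, 976 of 20918 genes were called in DN, with 9 of 78 of the set higher. In CTRL 903 of 21704 were called, in DN against CTRL inputs 39 and in the interaction 54. For DESeq2 and the fits without a filter, calls among all genes by direction and calls of the set lower in DN are not given here. A fit of all 12 libraries called 673 genes in DN. The 1 gene called in DN against CTRL inputs was lost (0 called) with DESeq2 size factors, a mean of at least 5 CPM, no mitochondrial chromosome genes, the block or the fit of all 12 libraries. The median of the set in DN against CTRL outputs was 0.0805 with a mean of at least 5 CPM. The cause of these moves was not tested.

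The interaction of Kcnb2, -0.16, ran from -0.37 to 0.33 when 1 pool was left out, with 0.33 without DN replicate 3 (adjusted p = 0.852, edgeR). That of Kcnip3, 0.17, ran from -0.39 to 0.42, with -0.39 without CTRL replicate 3 (adjusted p = 0.9998, edgeR). Neither was called, with ranges over the alternatives of 0.852 to 1 and 0.958 to 1. The median log2 ratio of the set within a pool moved with the added constant: 0.44 with 0.1 CPM in DN pool 1 (0.28 with 1 CPM), 0.22 with 5 CPM in DN pool 2 (0.51 with 1 CPM), and 0.21 and 0.0611 with 0.1 and 5 CPM in CTRL pool 2 (0.14 with 1 CPM). Outputs held 26.2 to 32.1 M counts of nuclear genes and inputs 8.54 to 11.3 M, so depth limits genes of low level more in inputs.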
